A study of Mus musculus with 6 samples.

Results

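The genes of traffic between the endoplasmic reticulum (ER) and the Golgi were followed on arrays of mouse ventricles that expressed an active form of either ATF6 protein in cardiomyocytes. They were taken by name: the COPII coat and the proteins that start it, the scaffold of ER exit sites, the receptors that load cargo, the SNAREs of the early pathway, the COPI coat with its ARF GTPases, the KDEL receptors and the p24 (Tmed) family. The list held 44 names for 43 genes, since Sec12 is another name of Preb. All 43 were measured, each by 1 probe set of its own, among 21154 genes and 22206 probe sets tested. By role they fell into 8 groups: 12 COPII genes, 3 of the exit site scaffold, 4 export cargo receptors, 2 SNAREs, 9 COPI coat subunits, 2 ARF GTPases, 3 KDEL receptors and 8 p24 genes.

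The tested mice carried αMHC-tTA, a tetracycline-controlled activator under the cardiac α-myosin heavy chain promoter, together with either ATF6α-cn or ATF6β-cn, the transcriptionally active N-terminal part of ATF6α or ATF6β, whose promoter is also that of α-myosin heavy chain and needs the activator. Control mice carried αMHC-tTA alone. All were on a C57BL/6 background and 8 weeks old, 4 weeks after doxycycline, which silences the transgenes, had been taken out of the chow, and the sex of the array mice was not given in the sources used here. Total RNA of the ventricles went on 1 Clariom S array per sample, with 2 biological replicates in each group. Each value below is a log2 signal, on which 1 unit is a doubling, and differences of group means are given on the same scale with limma's standard error (SE), 95% interval and a Benjamini-Hochberg adjusted p over all 22206 probe sets. A gene was called when the adjusted p was under 0.05. Signals of different probe sets were not set against each other, because probes differ in how strongly they bind. The exception is the summed signals of the cell type markers, in which the brightest probe sets weigh most.

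Proteins made in the ER leave it in vesicles coated by COPII. Preb (Sec12) loads GTP onto SAR1, SAR1 recruits the inner coat of SEC23 and SEC24, SEC24 picks up cargo, and SEC13 with SEC31 forms the outer cage. COPI vesicles, set up by ARF GTPases, bring escaped ER proteins and cargo receptors back, and the KDEL receptors return chaperones that carry the KDEL signal. The p24 proteins shuttle in both directions as cargo receptors and coat adaptors. ATF6 is held in the ER, travels to the Golgi in COPII vesicles when unfolded proteins build up, and is cut there to free the part that enters the nucleus, so that the factor expressed here is itself a cargo of this pathway in its full-length form.

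Array medians lay between 5.58 and 5.64 log2 units, and Pearson's r between replicates was 0.990 to 0.991 across probe sets. The 6640 control probe sets of the array, which were not tested, had medians of 5.42 and 5.40 on the control ventricles' arrays. Their medians were 5.80 and 5.83 on the ATF6α-cn arrays and 5.84 and 5.77 on the ATF6β-cn arrays, so both lines lay above control. The part of this shift in the differences against control was not tested. All 12 cardiomyocyte markers were above the background level of 5.03, under which 95% of 1410 olfactory and vomeronasal genes lay, while the T cell marker Cd3e, the B cell marker Cd79a and the atrial marker Myl7 were below it in every group. Of the transgenes, Atf6b averaged 8.92 ± 0.38 (SD, n = 2) in ATF6α-cn, 14.80 ± 0.01 (SD, n = 2) in ATF6β-cn and 8.68 ± 0.07 (SD, n = 2) in control ventricles. The Atf6 signal was not higher in the arrays labelled ATF6α-cn, at 12.88 ± 0.26 (SD, n = 2) against 13.07 ± 0.04 (SD, n = 2) in control ventricles, and it averaged 12.10 ± 0.22 (SD, n = 2) in ATF6β-cn ventricles. The place of the Atf6 probes relative to the shortened ATF6α-cn message was not given in the sources used here, so that this signal does not check the ATF6α-cn label, and the 2 transgenes were not matched in level. Of the 43 genes, 42 were above background in at least 1 group, and only Sec31b was not.

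In ATF6β-cn ventricles 3 of the 43 genes rose and none fell. They were the p24 genes Tmed3 (3.41-fold) and Tmed9 (2.20-fold) and the cargo receptor Surf4 (2.64-fold). Over all probe sets 0.793% were called higher and 0.306% lower in this comparison, and among the 13479 probe sets above background 1.30% were called higher. At an unadjusted p under 0.05, 18 of the 43 genes were higher and 0 lower in ATF6β-cn, against 6.72% and 7.14% of all probe sets (9.58% higher among those above background). Both ATF6β-cn arrays lay above both control arrays for 25 genes, against 21.1% of all probe sets and 24.3% of those above background, and below them for 1 gene, against 23.3% of all probe sets. The median difference of the 43 genes was 0.31 (from -0.29 to 1.77), beside -0.02 over all probe sets and also over those above background.

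In ATF6α-cn ventricles 0 of the 43 genes were called by limma in either direction, while 0.0946% of all probe sets were called higher and 0% lower. At an unadjusted p under 0.05, 2 genes were higher (Tfg and Copz1) and 1 was lower (Tmed1), against 4.44% and 4.48% of all probe sets. The test that the methods name gave 2 higher genes (Sec22b and Arf4) and 3 lower (Lman1, Copz2 and Tmed1) before adjustment, against 3.06% and 3.796% of all probe sets, and 0 in either direction after it. Both ATF6α-cn arrays lay above both control arrays for 12 genes and below them for 8, against 17.9% and 21.6% of all probe sets. The median difference was -0.06 (from -0.56 to 1.80), beside -0.03 over all probe sets. Both lines are set against the same 2 control arrays, so the 2 comparisons are not independent of each other.

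**Figure D1:**
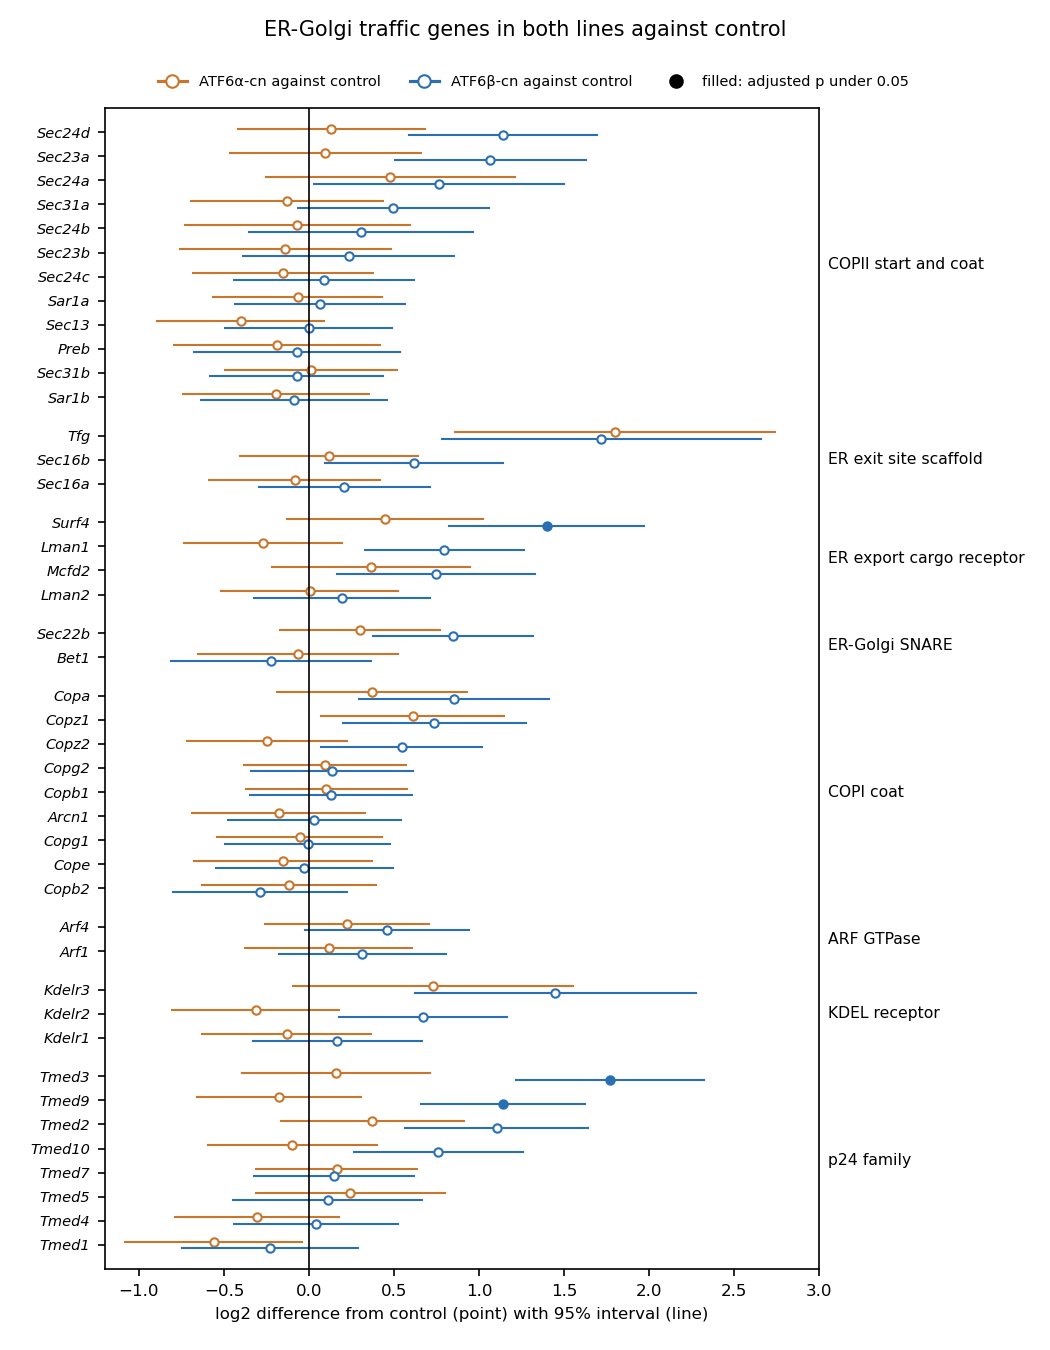
Log2 difference from control (x axis, log2 units) of each of the 43 genes, ordered within its role, for ATF6α-cn (orange) and ATF6β-cn (blue), with points for the difference and lines for its 95% interval; filled points have an adjusted p under 0.05. The filled points are Surf4, Tmed3 and Tmed9 in ATF6β-cn, at 1.40, 1.77 and 1.14, and no ATF6α-cn point is filled.

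Promoter sequences were read because ATF6 is known to bind DNA elements that hold the letters CCACG. RefSeq promoters (GRCm38.p6, 250 bases before to 50 after the start) were at hand for 38 of the 43 genes, all but Lman1, Arcn1, Kdelr2, Tmed2 and Tmed7, and each was searched on both strands. The 8 letters TGACGTGG, the core of the unfolded protein response element (UPRE), occurred in 7 of the 38 (18.4%), in 3 of 66 other ER-Golgi traffic genes (4.55%), in 98 of 9556 genes with a signal above background (1.03%) and in 193 of 27025 genes of the table (0.714%). CCACG, which the UPRE core contains on its other strand as CGTGG, occurred in 28 of the 38 (73.7%), in 49.1% of genes above background and in 35.5% of all. The ER stress response element (ERSE: CCAAT, 9 bases, CCACG) and the ERSE-II (ATTGG, 1 base, CCACG) occurred in 0 of the 38, and in 0.137% and 0.0444% of all genes. The 7 matches are shown with 10 bases on each side, read along the gene's strand, with the UPRE core in capitals as TGACGTGG or, where it lies on the other strand, as CCACGTCA.
Sec24d (chr3:123267460-123267487, + strand): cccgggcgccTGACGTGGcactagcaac
Sec23a (chr12:59011994-59012021, - strand): tcctccccttTGACGTGGcagaggcggc
Kdelr3 (chr15:79516368-79516395, + strand): ggccgccccgCCACGTCAccgcgcggcc
Sec16b (chr1:157506742-157506769, + strand): tctgtgtggcTGACGTGGcacggcagtt
Arf1 (chr11:59228229-59228256, - strand): cggcaggcgcTGACGTGGctgccgtcag
Copb1 (chr7:114254691-114254718, - strand): ccgcccccttCCACGTCAgccaaggact
Copb2 (chr9:98563714-98563741, + strand): cccggaagttCCACGTCAgtgggttggc
The match begins 26 bases before the start in Sec24d, 30 in Kdelr3, 44 in Sec16b, 28 in Copb1 and 7 in Copb2, and 7 bases after it in Sec23a. Arf1 has 2 annotated starts, with the match 84 bases before 1 and 22 after the other. Against control the 7 genes had a median difference of 0.12 in ATF6α-cn (from -0.12 to 0.73), beside -0.07 in the 31 genes without the core (from -0.56 to 1.80). In ATF6β-cn the median was 0.62 in the 7 genes (from -0.29 to 1.45), beside 0.21 in the 31 (from -0.23 to 1.77). The 0.62 is the value of Sec16b itself, whose control mean of 4.45 lies under the background level of 5.03. The range of the 7 spans Kdelr3 at one end and Copb2, which was below control on both arrays, at the other, and none of the 7 was called. A match is a description of the letters and shows no binding.

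None of the 3 genes that rose in ATF6β-cn holds the UPRE core. Their 250 bases before the start are shown because they are the called genes, with the 1 CCACG in each, here on its other strand as CGTGG, in capitals.
Tmed3 (chr9:89705044-89705293, - strand): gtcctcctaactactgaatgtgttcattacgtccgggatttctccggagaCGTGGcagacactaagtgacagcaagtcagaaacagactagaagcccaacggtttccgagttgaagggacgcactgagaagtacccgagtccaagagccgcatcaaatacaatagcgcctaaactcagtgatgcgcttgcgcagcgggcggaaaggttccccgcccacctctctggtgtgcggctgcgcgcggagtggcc
Surf4 (chr2:26933512-26933761, - strand): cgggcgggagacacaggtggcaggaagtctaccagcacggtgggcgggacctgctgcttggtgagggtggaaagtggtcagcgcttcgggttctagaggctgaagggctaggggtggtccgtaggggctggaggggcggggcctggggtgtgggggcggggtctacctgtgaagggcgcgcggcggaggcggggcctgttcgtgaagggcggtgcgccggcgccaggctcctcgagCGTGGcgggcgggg
Tmed9 (chr13:55592885-55593134, + strand): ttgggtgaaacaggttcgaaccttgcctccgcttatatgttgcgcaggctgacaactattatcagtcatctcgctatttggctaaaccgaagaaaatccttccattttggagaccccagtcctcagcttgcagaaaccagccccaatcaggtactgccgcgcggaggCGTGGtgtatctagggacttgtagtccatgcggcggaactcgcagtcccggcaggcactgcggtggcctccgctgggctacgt
Such a pentamer is found in most promoters of the list, as counted above, so its presence does not set these 3 apart.

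Of the 12 genes that start or build the COPII coat, 8 had a positive difference in ATF6β-cn with a median of 0.16, 4 did in ATF6α-cn with a median of -0.10, and 0 were called in either line (at an unadjusted p under 0.05, 3 higher in ATF6β-cn and 0 in ATF6α-cn). The largest differences belonged to cargo-binding and inner coat subunits. Sec24d, 1 of 4 cargo-binding SEC24 isoforms, had log2 signals of 9.19 and 9.09 on the ATF6α-cn arrays, 10.34 and 9.95 on the ATF6β-cn arrays and 9.19 and 8.83 on the control arrays. Both ATF6β-cn arrays stood above the other 4, which overlapped. Its difference was 1.14 in ATF6β-cn (2.21-fold, SE 0.24, interval 0.59 to 1.69, adjusted p = 0.0718 by limma), which missed the threshold, and 0.13 in ATF6α-cn (interval -0.42 to 0.68). Sec23a, the inner coat subunit that activates the GTPase of SAR1, gave 11.54 and 11.10 in ATF6α-cn, 12.29 and 12.28 in ATF6β-cn and 11.04 and 11.41 in control ventricles. Its difference in ATF6β-cn was 1.07 (2.09-fold, SE 0.25, adjusted p = 0.0956 by limma), with no overlap between the ATF6β-cn and the control arrays.

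Sec23b, Sec24a, Sec24b and Sec24c are paralogs of these subunits. Sec23b had 7.82 and 8.50 in ATF6α-cn, 8.60 and 8.46 in ATF6β-cn and 8.16 and 8.43 in control ventricles, with both ATF6β-cn arrays barely above control (difference 0.23, interval -0.39 to 0.85). Sec24a had 7.19 and 7.69 in ATF6α-cn, 8.17 and 7.29 in ATF6β-cn and 7.06 and 6.87 in control ventricles. All 4 transgenic arrays of Sec24a were above both control arrays, but its ATF6β-cn replicates were 0.88 units apart, and the difference of 0.76 had an interval of 0.03 to 1.497 (adjusted p = 0.339 by limma). Sec24b had 6.49 and 6.98 in ATF6α-cn, 6.90 and 7.32 in ATF6β-cn and 7.08 and 6.52 in control ventricles, and Sec24c had 10.89 and 10.60, 11.005 and 10.96, and 10.72 and 11.07 in the same order. For both the arrays of each line overlapped those of control, with ATF6β-cn differences of 0.31 and 0.09. Both ATF6β-cn arrays of Sec24c lay above both ATF6α-cn arrays.

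Other COPII genes act in the first steps of assembly or in the outer cage. The GTPase Sar1a had 15.08 and 14.76 in ATF6α-cn, 15.07 and 15.03 in ATF6β-cn and 14.93 and 15.04 in control ventricles (ATF6β-cn difference 0.06), and its paralog Sar1b had 15.40 and 15.74, 15.87 and 15.48, and 15.81 and 15.72 (ATF6β-cn difference -0.09). Preb, the exchange factor of SAR1, differed by -0.19 in ATF6α-cn and -0.07 in ATF6β-cn. None of these 3 had groups that stood apart. Sec13, a cage subunit that is also part of the nuclear pore, gave 7.72 and 7.81 in ATF6α-cn, 8.27 and 8.06 in ATF6β-cn and 8.25 and 8.08 in control ventricles, so that the ATF6α-cn arrays lay lowest (difference -0.40, interval -0.89 to 0.09, adjusted p = 0.626 by limma) and ATF6β-cn was level with control (interval -0.49 to 0.49). Its partner Sec31a had 11.01 and 10.88 in ATF6α-cn, 11.86 and 11.29 in ATF6β-cn and 11.03 and 11.12 in control ventricles, with the control arrays between those of the lines (differences -0.13 and 0.50). Sec31b, read at 4.76 and 4.90 in ATF6α-cn, 4.62 and 4.88 in ATF6β-cn and 4.94 and 4.70 in control ventricles, was not told from background in any group.

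At ER exit sites, where COPII assembles, 0 of the 3 scaffold genes were called in either line (at an unadjusted p under 0.05, 2 higher in ATF6β-cn and 1 in ATF6α-cn). Tfg, which links COPII coats between the ER and the next compartment, gave 12.58 and 12.46 in ATF6α-cn, 12.61 and 12.27 in ATF6β-cn and 11.44 and 9.995 in control ventricles. All 4 transgenic arrays were above both control arrays, yet the control replicates were 1.45 units apart. Its differences of 1.80 in ATF6α-cn (SE 0.41, interval 0.86 to 2.74, adjusted p = 0.281 by limma) and 1.72 in ATF6β-cn (interval 0.78 to 2.66, adjusted p = 0.108 by limma) thus rested on which control array was used: without control replicate 2 they were 1.08 and 0.996, and without control replicate 1 they were 2.52 and 2.44, at which the ATF6β-cn difference was called. The scaffold Sec16a had 6.28 and 6.17 in ATF6α-cn, 6.44 and 6.59 in ATF6β-cn and 6.15 and 6.46 in control ventricles (ATF6β-cn difference 0.21). Each line overlapped control, while both ATF6β-cn arrays lay above both ATF6α-cn arrays. Sec16b, its shorter paralog, had 4.43 and 4.71 in ATF6α-cn, 4.90 and 5.24 in ATF6β-cn and 4.43 and 4.47 in control ventricles. Its ATF6β-cn difference of 0.62 (interval 0.09 to 1.14, adjusted p = 0.280 by limma) spanned the background level, since its mean in the other groups was below 5.03.

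Among the 4 export cargo receptors all 4 had a positive difference in ATF6β-cn (median 0.77), 3 had one in ATF6α-cn (median 0.19), and Surf4 rose in ATF6β-cn. Surf4 loads soluble secreted proteins into COPII vesicles. It gave 12.54 and 13.08 in ATF6α-cn, 13.80 and 13.73 in ATF6β-cn and 12.21 and 12.52 in control ventricles, so that every transgenic array was above both control arrays and the ATF6β-cn arrays were highest. The ATF6β-cn difference was 1.40 (2.64-fold, SE 0.25, interval 0.82 to 1.97, adjusted p = 0.0429 by limma), and that of ATF6α-cn was 0.45 (interval -0.13 to 1.02, adjusted p = 0.643 by limma). The Surf4 call was lost without any 1 of the control or ATF6β-cn arrays, with a difference of 1.25 to 1.55 and an adjusted p of 0.141 to 0.226.

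Lman1 (ERGIC-53) is a mannose-binding receptor that carries glycoproteins out of the ER together with Mcfd2. Lman1 had 12.26 and 12.32 in ATF6α-cn, 13.36 and 13.36 in ATF6β-cn and 12.59 and 12.53 in control ventricles, with close replicates in each group and the control arrays between those of the lines. Its differences were -0.27 in ATF6α-cn (adjusted p = 0.722 by limma) and 0.80 in ATF6β-cn (interval 0.33 to 1.26, adjusted p = 0.131 by limma). Mcfd2 differed by 0.37 in ATF6α-cn and 0.74 in ATF6β-cn (interval 0.16 to 1.33, adjusted p = 0.244 by limma), with both arrays of each line above control. Lman2 (VIP36), another lectin of the early pathway, gave 7.51 and 7.63 in ATF6α-cn, 7.96 and 7.56 in ATF6β-cn and 7.52 and 7.62 in control ventricles and overlapped in all groups.

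Of the 8 p24 genes, 7 had a positive difference in ATF6β-cn (median 0.45) and 4 in ATF6α-cn (median 0.03), and Tmed3 and Tmed9 rose in ATF6β-cn. Tmed3, of the γ subfamily, gave 8.11 and 7.86 in ATF6α-cn, 9.47 and 9.73 in ATF6β-cn and 8.04 and 7.63 in control ventricles. The ATF6β-cn arrays stood well above the other 4, which overlapped, and the difference was 1.77 (3.41-fold, SE 0.24, interval 1.22 to 2.32, adjusted p = 0.0151 by limma). In ATF6α-cn it was 0.16 (interval -0.40 to 0.71, adjusted p = 0.881 by limma). The Tmed3 call in ATF6β-cn held without control replicate 1 or either ATF6α-cn array and was lost without control replicate 2 (1.56, adjusted p = 0.110 by limma), ATF6β-cn replicate 1 (1.90, adjusted p = 0.0846) or ATF6β-cn replicate 2 (1.64, adjusted p = 0.142).

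Tmed9, of the α subfamily, had 9.75 and 9.76 in ATF6α-cn, 11.18 and 10.97 in ATF6β-cn and 9.99 and 9.88 in control ventricles, again with the ATF6β-cn arrays highest and the ATF6α-cn arrays just below control. Its differences were 1.14 in ATF6β-cn (2.20-fold, SE 0.21, interval 0.66 to 1.62, adjusted p = 0.0478 by limma) and -0.18 in ATF6α-cn (interval -0.66 to 0.31). The Tmed9 call was at the edge of the threshold and was lost when any 1 of the 6 arrays was left out (difference 1.03 to 1.25, adjusted p = 0.0799 to 0.227 by limma). Tmed2 and Tmed10, the sole members of the β and δ subfamilies and partners in p24 complexes, were also above control on both ATF6β-cn arrays without being called. Tmed2 had 13.88 and 13.97 in ATF6α-cn, 14.83 and 14.49 in ATF6β-cn and 13.37 and 13.74 in control ventricles (ATF6β-cn difference 1.11, adjusted p = 0.0740 by limma). Tmed10 had 12.45 and 12.48, 13.46 and 13.19, and 12.47 and 12.66 in the same order (ATF6β-cn difference 0.76, adjusted p = 0.166 by limma).

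Of the other p24 genes, Tmed7 was also above control on both ATF6β-cn arrays, with 13.73 and 13.88 in ATF6α-cn, 13.78 and 13.80 in ATF6β-cn and 13.64 and 13.64 in control ventricles (ATF6β-cn difference 0.15). Tmed4, with the smallest ATF6β-cn difference of the family, gave 13.35 and 13.53 in ATF6α-cn, 13.76 and 13.82 in ATF6β-cn and 13.67 and 13.82 in control ventricles (ATF6β-cn difference 0.04, interval -0.44 to 0.52). The ATF6β-cn differences of Tmed5 and Tmed1 were 0.11 and -0.23. Tmed1, a γ-subfamily member like Tmed3, had 7.84 and 7.89 in ATF6α-cn, 8.41 and 7.99 in ATF6β-cn and 8.47 and 8.39 in control ventricles. It was lower in both ATF6α-cn arrays than in control, by -0.56 (interval -1.08 to -0.04, unadjusted p = 0.0373, adjusted p = 0.543 by limma).

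**Figure D2:**
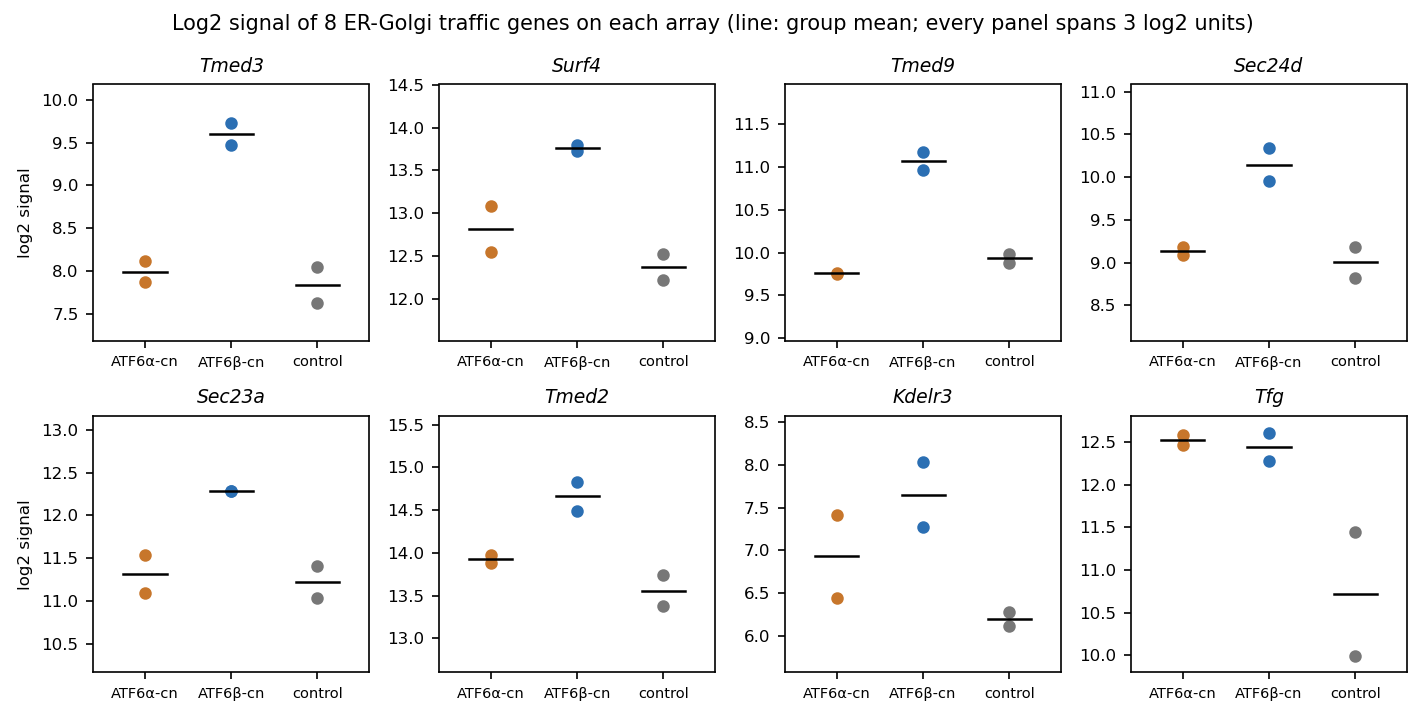
Log2 signal (y axis, log2 units; each panel spans 3 units, with its own start) of 8 genes on each of the 6 arrays, with ATF6α-cn left, ATF6β-cn in the middle and control right; points are arrays and lines are group means. In Tmed3, Surf4, Tmed9, Sec24d, Sec23a and Tmed2 both ATF6β-cn arrays lie above the other 4, and in Tfg the 2 control arrays, at 11.44 and 9.995, lie far apart.

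The COPI coat carries cargo backwards. Of its 9 subunits 6 had a positive difference in ATF6β-cn (median 0.13) and 4 in ATF6α-cn (median -0.06), and 0 were called in either line (at an unadjusted p under 0.05, 3 higher in ATF6β-cn and 1 in ATF6α-cn). Copa, the α subunit that binds retrieval signals, gave 11.95 and 12.01 in ATF6α-cn, 12.27 and 12.65 in ATF6β-cn and 11.82 and 11.40 in control ventricles. Both lines were above control on both arrays, with a difference of 0.85 in ATF6β-cn (interval 0.29 to 1.41, adjusted p = 0.167 by limma) and 0.37 in ATF6α-cn. Copg1 and Copg2, the γ subunits, overlapped or nearly so: Copg1 had 8.75 and 8.63 in ATF6α-cn, 8.62 and 8.85 in ATF6β-cn and 8.76 and 8.73 in control ventricles, and Copg2 had 11.73 and 11.67, 11.79 and 11.70, and 11.53 and 11.69. Their ATF6β-cn differences were -0.01 (interval -0.49 to 0.48) and 0.13.

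The ζ subunits of COPI are encoded by a pair of paralogs. Copz1 had 11.69 and 11.52 in ATF6α-cn, 11.88 and 11.58 in ATF6β-cn and 11.17 and 10.82 in control ventricles, with all 4 transgenic arrays above control and differences of 0.61 (adjusted p = 0.518 by limma) and 0.74 (adjusted p = 0.214 by limma). Copz2 had 10.90 and 10.81 in ATF6α-cn, 11.58 and 11.71 in ATF6β-cn and 11.09 and 11.12 in control ventricles, so that control lay between the lines (-0.25 in ATF6α-cn and 0.54 in ATF6β-cn, adjusted p = 0.757 and 0.291 by limma). Copb2, the β′ subunit, was the 1 gene of the list with both ATF6β-cn arrays below control, at 13.61 and 13.31 in ATF6α-cn, 13.31 and 13.26 in ATF6β-cn and 13.46 and 13.70 in control ventricles (ATF6β-cn difference -0.29, interval -0.80 to 0.22). Copb1, Cope and Arcn1 (the β, ε and δ subunits) differed by 0.13, -0.03 and 0.03 in ATF6β-cn and by 0.10, -0.15 and -0.18 in ATF6α-cn.

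Arf1 and Arf4, the GTPases that recruit COPI, were above control on both ATF6β-cn arrays without being called. Arf1 had 14.89 and 14.98 in ATF6α-cn, 15.16 and 15.10 in ATF6β-cn and 14.95 and 14.68 in control ventricles (ATF6β-cn difference 0.31). Arf4 had 12.13 and 12.14, 12.48 and 12.26, and 11.94 and 11.88 in the same order, so that both lines were above control, by 0.22 and 0.46 (interval -0.02 to 0.94 in ATF6β-cn). The SNARE Sec22b, used in both directions between ER and Golgi, gave 8.62 and 8.63 in ATF6α-cn, 9.21 and 9.15 in ATF6β-cn and 8.39 and 8.26 in control ventricles. Its replicates were close, and its ATF6β-cn difference was 0.85 (1.80-fold, interval 0.38 to 1.32, adjusted p = 0.114 by limma). Bet1, its forward-acting partner SNARE, had 6.76 and 6.89 in ATF6α-cn, 6.39 and 6.94 in ATF6β-cn and 7.07 and 6.71 in control ventricles and overlapped (ATF6β-cn difference -0.22).

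None of the 3 KDEL receptors was called (at an unadjusted p under 0.05, 2 were higher in ATF6β-cn and 0 in ATF6α-cn). Kdelr3 gave 6.45 and 7.41 in ATF6α-cn, 8.03 and 7.27 in ATF6β-cn and 6.11 and 6.28 in control ventricles. All 4 transgenic arrays were above control, but the replicates of each line were 0.76 to 0.97 units apart, and the ATF6β-cn difference of 1.45 (2.73-fold, SE 0.36, interval 0.63 to 2.27) had an adjusted p of 0.122 by limma. Kdelr2 had 11.88 and 12.13 in ATF6α-cn, 13.08 and 12.91 in ATF6β-cn and 12.30 and 12.35 in control ventricles, with control between the lines (-0.31 in ATF6α-cn and 0.67 in ATF6β-cn, adjusted p = 0.695 and 0.217 by limma). Kdelr1 had 12.46 and 12.60, 12.93 and 12.73, and 12.55 and 12.77 in the same order, and each line overlapped control (ATF6β-cn difference 0.17, interval -0.33 to 0.66). Its ATF6β-cn arrays both lay above both ATF6α-cn arrays.

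**Figure D3:**
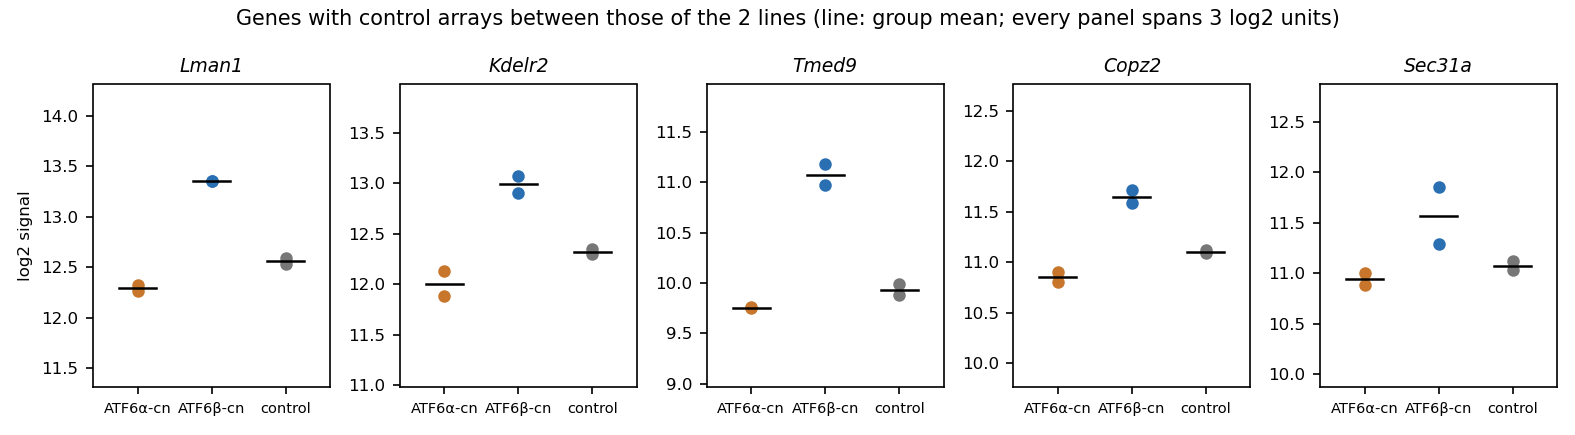
Log2 signal (y axis, log2 units; each panel spans 3 units, with its own start) of Lman1, Kdelr2, Tmed9, Copz2 and Sec31a on each array, with ATF6α-cn left, ATF6β-cn in the middle and control right; points are arrays and lines are group means. In each of these genes both control arrays lie above both ATF6α-cn arrays and below both ATF6β-cn arrays. The genes were chosen after their values were seen. Their ATF6α-cn differences, from -0.31 (Kdelr2) to -0.13 (Sec31a), were not called, and the 95% interval of each includes 0.

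Set directly against each other, the lines differed most in 2 p24 genes and a cargo receptor among the 43 genes. Tmed3 was higher in ATF6β-cn than in ATF6α-cn ventricles by 1.61 (3.06-fold, SE 0.24, interval 1.06 to 2.17, adjusted p = 0.0459 by limma), the 1 call among the 43 genes, and the call was lost without any 1 array (adjusted p = 0.0719 to 0.322 by limma). Over all probe sets 0.221% were called higher and 0.0495% lower in this comparison. Tmed9 came next with 1.32 (2.49-fold, interval 0.83 to 1.80, adjusted p = 0.0584 by limma), followed by Lman1 with 1.07 (2.09-fold, adjusted p = 0.0982 by limma), Sec24d with 1.01, Kdelr2 with 0.99, Sec23a with 0.97 and Surf4 with 0.95 (adjusted p = 0.188, 0.154, 0.214 and 0.236 by limma). All of these had both ATF6β-cn arrays above both ATF6α-cn arrays.

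At an unadjusted p under 0.05, 12 of the 43 genes were higher in ATF6β-cn than in ATF6α-cn and 0 lower, against 5.30% and 4.37% of all probe sets. Both ATF6β-cn arrays lay above both ATF6α-cn arrays for 24 genes and below them for 0, against 20.3% and 19.4% of all probe sets. The median difference was 0.30, beside 0.00 over all probe sets. By role the medians were 0.72 for the KDEL receptors, 0.66 for the cargo receptors, 0.54 for the p24 genes, 0.33 for the COPII genes, 0.29 for the scaffold, 0.22 for the ARFs, 0.20 for the SNAREs and 0.13 for the COPI coat. Some of these medians rested on single arrays. With replicate 1 or replicate 2 of ATF6α-cn left out, the KDEL receptor median was 0.23 or 1.11, and with the like arrays of ATF6β-cn left out it was 0.34 or 1.07. The COPII median was 0.21 or 0.49 when the first or second ATF6α-cn array was dropped, and the SNARE median 0.32 or 0.07 when the first or second ATF6β-cn array was. For the COPI coat, dropping ATF6α-cn replicate 2 or ATF6β-cn replicate 1 gave 0.04, and dropping ATF6β-cn replicate 2 gave 0.1995. Tfg and Copz1, above control in both lines, differed by -0.08 (interval -1.02 to 0.86) and 0.13 (interval -0.41 to 0.67) between them, ranges that leave room for differences either way.

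**Figure D4:**
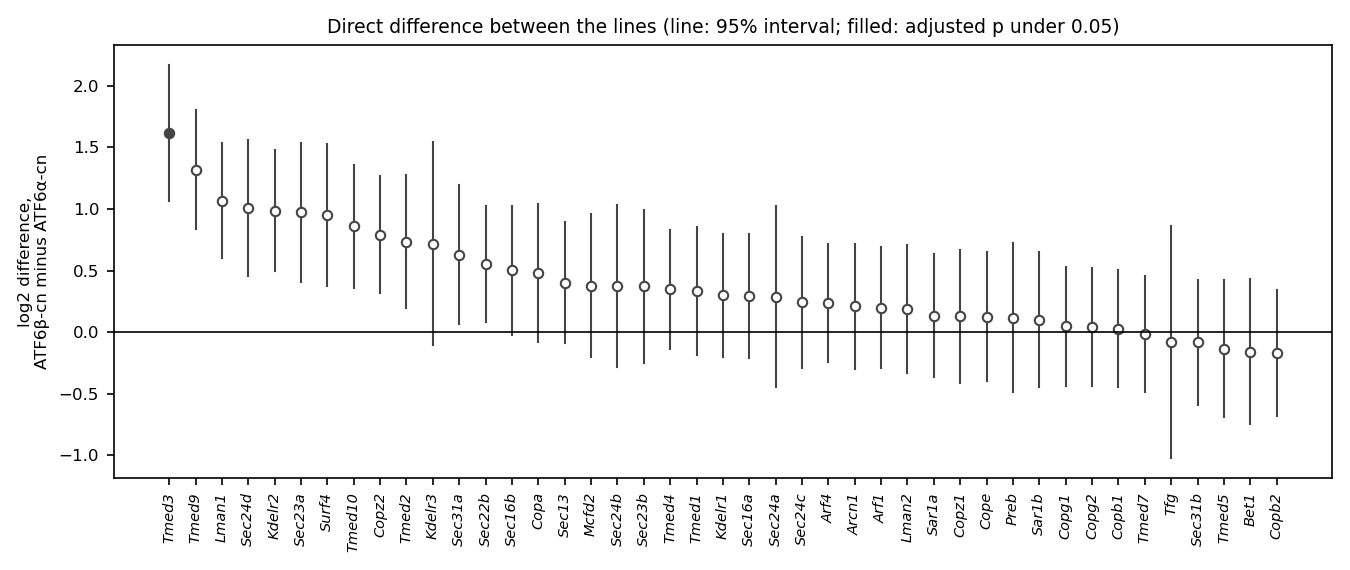
Log2 difference of ATF6β-cn minus ATF6α-cn (y axis, log2 units) for each of the 43 genes, ordered by size; points are differences, lines 95% intervals, and the filled point has an adjusted p under 0.05. Tmed3 at 1.61 is the filled point, and the row ends with Copb2 at -0.17.

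Beyond these genes, 76 others of the same route (further SNAREs, tethers and Golgi matrix proteins, COPII regulators, ERGIC proteins, ARF regulators and RABs) gave 0 calls by limma in any of the 3 comparisons. At an unadjusted p under 0.05, 4 were higher and 3 lower in ATF6α-cn than in control, 18 higher and 1 lower in ATF6β-cn than in control, and 18 higher and 3 lower in ATF6β-cn than in ATF6α-cn, to be read against the shares of all probe sets given above. Their median differences were -0.03, 0.11 and 0.15, and both ATF6β-cn arrays were above both control arrays for 32 of the 76 and below them for 15. The difference between this list and the 43 genes was not tested.

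Ventricles hold other cells besides cardiomyocytes, and in whole tissue fewer cells of a type and less RNA per cell cannot be told apart. Of 12 fibroblast and matrix markers, 8 had a positive difference in each line, and the median was 0.29 for ATF6α-cn and 0.55 for ATF6β-cn. The 1 marker called was Fbln1, an extracellular matrix protein, which rose by 1.75 in ATF6β-cn (adjusted p = 0.0393 by limma) and was 2.02 higher in ATF6β-cn than in ATF6α-cn (adjusted p = 0.0472 by limma). In units of 1000 of linear signal, the 12 markers summed to 418 to 504 in ATF6α-cn, 438 to 549 in ATF6β-cn and 377 to 388 in control ventricles, and all were above background. Dcn and Sparc, an extracellular proteoglycan and a collagen-binding matrix protein, have the highest signals in this sum, and neither was called. Dcn differed by 0.01 in ATF6α-cn and 0.67 in ATF6β-cn (adjusted p = 0.995 and 0.220 by limma), and Sparc by 0.54 in ATF6α-cn and -0.34 in ATF6β-cn (adjusted p = 0.613 and 0.668 by limma).

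Leukocyte markers summed to 13.4 to 13.9 units in ATF6α-cn, 12.3 to 21.5 in ATF6β-cn and 10.4 to 11.8 in control ventricles, with 6 of 10 markers positive in ATF6α-cn and 7 of 10 in ATF6β-cn. The 4 atrial markers summed to 121 to 368 units in ATF6α-cn, 124 to 156 in ATF6β-cn and 46.7 to 47.0 in control ventricles. Nearly all of this sum is Nppa, a natriuretic peptide. Its control mean was 15.51, against 6.96 for Myl4, 4.92 for Sln and 3.97 for Myl7. Nppa was 2.18 higher in ATF6α-cn and 1.57 higher in ATF6β-cn (adjusted p = 0.215 and 0.160 by limma). In the same order Sln differed by 0.51 and 0.53, Myl4 by -0.13 and 0.11, and Myl7 by 0.21 and 0.04. Of 10 endothelial markers, 8 had a positive difference in ATF6α-cn (median 0.30) and 4 in ATF6β-cn (median -0.09), with sums of 46.5 to 70.1 units in ATF6α-cn, 46.2 to 46.7 in ATF6β-cn and 49.8 to 51.5 in control ventricles. Set directly against ATF6α-cn, 2 of the 10 were positive in ATF6β-cn (median -0.31), and 4 were lower at an unadjusted p under 0.05. Of 8 smooth muscle and pericyte markers, 5 were positive in ATF6α-cn and 4 in ATF6β-cn (medians 0.01 and -0.01), with sums of 57.4 to 75.2, 52.8 to 94.2 and 46.0 to 53.7 units in the same order. Acta2, smooth muscle actin, differed by 1.497 in ATF6β-cn (adjusted p = 0.220 by limma), with arrays at 14.42 and 15.91. The 4 markers with a negative difference in ATF6β-cn were Cspg4 (-0.83, adjusted p = 0.165 by limma), Myh11 (-0.36), Rgs5 (-0.25) and Cnn1 (-0.07). Of 5 red blood cell markers, 0 were positive in ATF6α-cn and 2 in ATF6β-cn (medians -0.32 and -0.18), with sums of 701 to 934 units in ATF6α-cn, 597 to 1239 in ATF6β-cn and 929 to 947 in control ventricles. The 2 positive markers, Hba-a1 and Hba-a2, share 1 probe set (difference 0.02), which the medians and sums thus count 2 times. The probe sets of all these hemoglobin genes name several genes.

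The 12 cardiomyocyte markers had medians of -0.002 in ATF6α-cn and -0.04 in ATF6β-cn, and summed to 5760 to 5866 units in ATF6α-cn, 5576 to 5641 in ATF6β-cn and 5755 to 5840 in control ventricles. Several lie near the highest value of the table, 19.93, such as the calcium pump Atp2a2, with a mean of 19.93 in both lines and 19.90 in control ventricles. Of those further down, Ckm, the muscle creatine kinase, differed by -1.02 in ATF6β-cn (0.492-fold, adjusted p = 0.0708 by limma) and Mybpc3, a thick filament protein, by -0.65 (adjusted p = 0.231 by limma), with both ATF6β-cn arrays below both control arrays. At an unadjusted p under 0.05, 2 of the 12 were lower in ATF6β-cn. The part of these cell types in the differences of the 43 genes was not tested.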

How the data were processed

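RNA from 6 ventricle samples was read on Clariom S mouse arrays after 3′ IVT labelling. Per the labels, the authors used Affymetrix Expression Console, and they deposited 1 normalized log2 signal per probe set and array, with background correction, summary method and genome build not given in the sources used here. Gene symbols came from the deposited comparison sheets (unit: other), whose fold change and p-value columns hold the authors' own comparisons and were not used. Of 28846 probe sets, 6640 controls were left out, and the brightest probe set naming a gene alone stood for it (836 name several genes). A probe set naming several genes was used only where a gene had no other. limma 3.58.1 in R 4.3.3 fitted 1 mean per group over all 6 arrays, with 8.63 degrees of freedom (3 residual, 5.63 prior). For their own comparisons the authors used Transcriptome Analysis Console, with no covariate named. With 2 arrays against 2, an exact permutation test cannot go below p = 0.333, and the number of arrays limits the precision. The limma p-values set each difference against the spread between these samples, moderated by the prior from all probe sets. Promoters were searched in Python 3.11.15. The fit was checked on simulated data.

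The members and lists were chosen with earlier results of these data known. Values on every array were given for called genes, for the largest and smallest ATF6β-cn difference of each role, and for paralogs; a few more were added after their values were seen. Alternatives were quantile normalization, centring, removal of dim probe sets, weights per array and a robust variance trend. Others were only the 4 arrays of a comparison, a block for the replicate number and each array left out. The last were a plain t-test, unadjusted p-values and the mean of a gene's probe sets.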

Additional observations from a re-analysis of the deposited data

Results flagged for a closer look

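The difference of Tmed3 between the lines is worth a second look, because the effects of the 2 transgenes against the same control differed by a direct test: Tmed3 was 1.61 log2 units higher in ATF6β-cn than in ATF6α-cn ventricles (adjusted p = 0.0459 by limma), with log2 signals of 9.47 and 9.73 in ATF6β-cn and 8.11 and 7.86 in ATF6α-cn. The levels of the 2 transgenes were not matched.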

How the results depend on the processing

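For ATF6β-cn against control, 3 genes were called higher. The count was 10 with a variance trend and robust fit, 1 with the replicate block (Tmed3) and 18 at an unadjusted p. Student's t-test gave 0 after Benjamini-Hochberg and 12 before it. With 1 array left out, the difference was 1.56 to 1.98 for Tmed3, 1.25 to 1.55 for Surf4 and 1.03 to 1.25 for Tmed9. For ATF6β-cn against ATF6α-cn, 1 gene was called. The count was 0 with quantile normalization, the replicate block, only the 4 arrays of the comparison or the adjusted t-test, 2 without dim probe sets, 7 with the variance trend and robust fit, 9 and 12 with the unadjusted t-test and limma p, and 0 to 0 with 1 array left out. For ATF6α-cn the count of 0 higher genes became 2 with either unadjusted p, and that of 0 lower genes became 1 with limma's unadjusted p (Tmed1) and 3 with the unadjusted t-test (Lman1, Copz2 and Tmed1). The count of genes called lower in ATF6β-cn was 0 under every alternative. Over 14 refits, Tmed3 was called in ATF6β-cn in 11, Surf4 in 9 and Tmed9 in 5, and no difference of a called gene changed sign. Role medians kept their sign in both comparisons of ATF6β-cn. In ATF6α-cn those of the COPI coat, scaffold, SNAREs and p24 genes changed sign under 2, 1, 1 and 3 alternatives. Samples with the same replicate number did not deviate together (correlations of deviations -0.0038, -0.0015 and 0.0454). This check would miss a pairing that left no large shared shift, so it does not exclude pairing. The causes were not tested.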
